A study of Mus musculus with 4 samples.

Results

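The transcripts described here are those of 32 glycolysis and hypoxia genes, chosen by symbol from 32285 genes counted in cells of mouse prostate tumours. 24 of them encode glucose and lactate transporters, glycolytic enzymes and the regulators Pfkfb3 and Pfkfb4, and 8 are genes that low oxygen is known to induce (Pdk1, Egln3, Bnip3, Vegfa, Ankrd37, Ndrg1, P4ha1 and Adm). All 32 symbols were found. They were listed by symbol, with earlier results of these data known, and took no part in the clustering that defined the cell classes.

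Glycolysis splits glucose into pyruvate in the cytosol. Glucose enters through the SLC2A carriers, hexokinases trap it as glucose 6-phosphate, phosphofructokinase commits it to the pathway, and lactate dehydrogenase and the SLC16A carriers turn the pyruvate into lactate and export it. At most of these steps the cell can use one of several isoenzymes that differ in affinity and regulation. When oxygen is scarce, prolyl hydroxylases stop marking HIF-1α for destruction, and HIF-1α with its partner ARNT binds short DNA motifs and raises many glycolytic genes together with genes such as Vegfa and Bnip3. Neutrophils are known for a heavy reliance on glycolysis.

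The design asks how tumours that have lost Pygo2, a reader of histone marks in the Wnt pathway, differ from tumours that keep it. The DKO group has 2 libraries, from tumours with the tamoxifen-inducible Nkx3.1CreERT2 driver and floxed alleles that include Smad4. The TKO group has 2 libraries from tumours that add Pygo2L/L. The driver is known to act in prostate epithelium, and both groups share Cre, tamoxifen and the floxed Smad4. The series' text gives 10 and 17 weeks after tamoxifen, and no label ties a library to either. No label says whether the 2 libraries of a genotype are 2 animals, so a p-value here reflects the spread between libraries, and that spread may be technical.

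The libraries kept 3381 cells, with 617, 759, 1208 and 797 in DKO 1, DKO 2, TKO 1 and TKO 2, and 9167770 to 18360201 UMIs (unique molecular identifiers, one per captured transcript) per library. They shared 0 cell barcodes. 6 classes had at least 20 cells in every library and are compared here. Neutrophil-like cells numbered 305, 281, 492 and 263 in that order, and T- and NK-like cells 70, 164, 266 and 221. Dendritic-like, macrophage- and monocyte-like, fibroblast-like and epithelial-like cells numbered 26 to 105 per library. Pygo2 transcript was present in all 4 libraries, with overlapping levels: Pygo2 UMIs in epithelial-like cells numbered 10, 33, 25 and 4 in the same order, or 8.95, 8.70, 16.0 and 7.24 CPM (counts-per-million: UMIs of a gene scaled to all UMIs of the class and library). A 3′ tag can lie outside the deleted part, so this neither bears out nor contradicts the labels.

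The promoters of several members carry the core of the motif that HIF-1 is known to bind, and 4 of them are printed here because their genes recur in the results: the hexokinases Hk2 and Hk3, the glycolytic enzyme Pgk1 and the collagen prolyl hydroxylase P4ha1. Each run is the 250 bases upstream of a RefSeq transcript start on GRCm38.p6, written 5′ to 3′ on the gene's strand, and capitals mark ACGTG or GCGTG on either strand.
Hk2 (chr6:82774455-82774704, minus strand): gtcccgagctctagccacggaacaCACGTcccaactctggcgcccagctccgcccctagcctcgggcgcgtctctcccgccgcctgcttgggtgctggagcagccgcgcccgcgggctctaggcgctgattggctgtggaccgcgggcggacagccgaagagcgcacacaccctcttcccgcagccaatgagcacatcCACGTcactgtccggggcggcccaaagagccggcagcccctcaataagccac
Hk3 (chr13:55021386-55021635, minus strand): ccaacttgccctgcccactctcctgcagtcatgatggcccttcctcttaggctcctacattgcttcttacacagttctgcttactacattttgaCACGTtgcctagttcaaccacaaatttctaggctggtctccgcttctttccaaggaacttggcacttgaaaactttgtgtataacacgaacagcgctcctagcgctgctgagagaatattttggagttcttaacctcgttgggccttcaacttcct
Pgk1 (chrX:106186850-106187099, plus strand): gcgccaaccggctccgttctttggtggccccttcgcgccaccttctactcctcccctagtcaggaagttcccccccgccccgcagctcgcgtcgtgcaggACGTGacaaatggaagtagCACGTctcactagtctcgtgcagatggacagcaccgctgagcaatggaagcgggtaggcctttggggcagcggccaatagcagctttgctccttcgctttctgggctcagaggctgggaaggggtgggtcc
P4ha1 (chr10:59323046-59323295, plus strand): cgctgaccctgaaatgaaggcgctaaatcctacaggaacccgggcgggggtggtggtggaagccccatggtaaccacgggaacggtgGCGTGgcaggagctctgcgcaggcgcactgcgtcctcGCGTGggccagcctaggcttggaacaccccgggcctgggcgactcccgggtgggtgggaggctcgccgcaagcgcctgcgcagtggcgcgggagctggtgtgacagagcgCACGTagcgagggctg

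RefSeq promoters were matched for 30 of the 32 genes (Slc2a3 and Ndrg1 were not matched). ACGTG or GCGTG, searched on both strands, stood in at least 1 listed window of 27 of these 30 genes (90%), against 41.5% of 27025 genes searched in the same way. With only the first listed start of each gene, 23 of 30 (76.7%) held a match, against 38.6% of all genes. ACGTG alone was present for 17 of 30 (56.7%, against 18.5%) and GCGTG alone for 20 of 30 (66.7%, against 30.9%). The palindrome CACGTG counts as a match on both strands and is then 1 site. Such a match describes the letters of the window and does not show that a factor binds there.

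**Figure D1:**
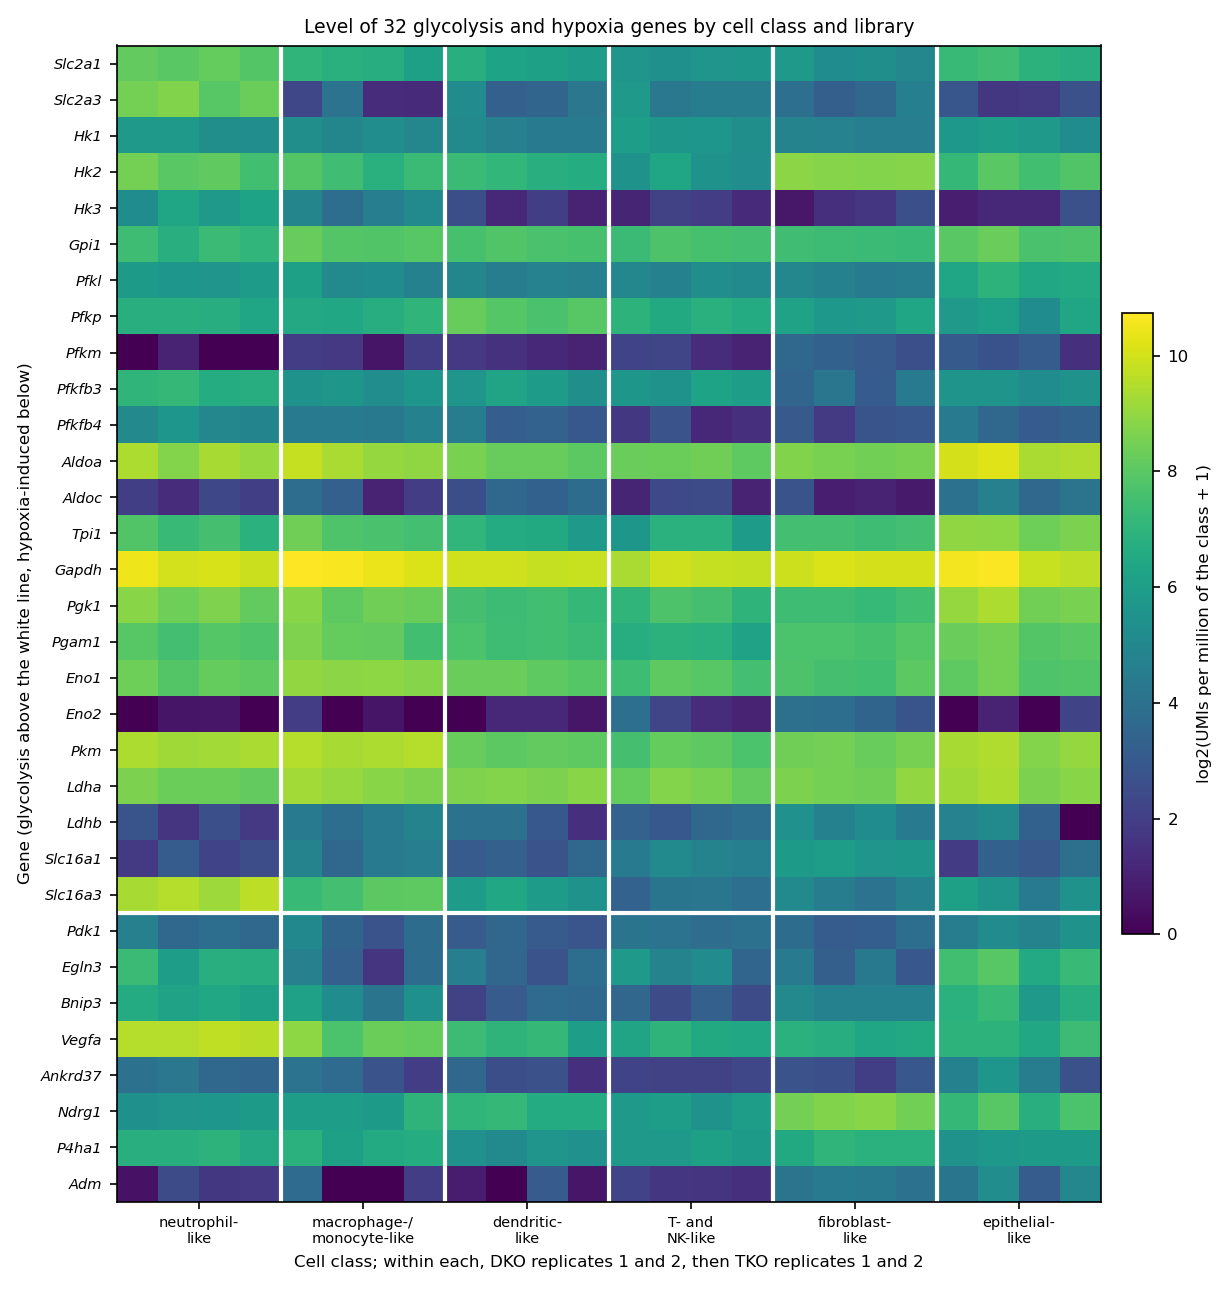
Level of each of the 32 genes as log2(CPM + 1) in the 6 cell classes, with 1 column per library in the order DKO 1, DKO 2, TKO 1 and TKO 2 and the 8 hypoxia-induced genes below the line. The band of high Slc2a3, Slc16a3 and Vegfa lies in the neutrophil-like columns, where Slc16a3 stood at 578 to 814 CPM, and that of Egln3 and Bnip3 in the neutrophil-like and epithelial-like columns.

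Levels are given as CPM. Each molecule is tagged near its 3′ end, so a CPM counts transcripts and needs no division by length. Each class was set against the mean of the other 5 in one edgeR fit with a term for library (log2 difference ± SE, 4 libraries per class, 12418 genes tested, called at an adjusted p under 0.05). In neutrophil-like cells 21 of the 32 genes were higher and 5 lower, against 63.3% of all genes called (29.2% higher and 34.1% lower). The median of the 32 was 0.72 and that of all genes -0.25, a shift against which the changes in this class are to be read. The fit rescales each class sum (TMM) and a CPM does not, so fitted differences and CPM can rank classes differently. Epithelial-like cells had 16 higher and 7 lower, with 55% of all genes called (30.4% higher, 24.6% lower) and medians of 0.37 and 0.03. Macrophage- and monocyte-like cells had 14 higher and 3 lower (33.3% of all genes called, 18.6% higher and 14.7% lower, medians 0.40 and -0.08). Fibroblast-like cells had 8 higher and 17 lower (63.7% called, 36.4% higher and 27.3% lower, medians -0.39 and 0.10), dendritic-like cells 2 higher and 14 lower (42.5% called, 22.3% higher and 20.2% lower, medians -0.66 and -0.05), and T- and NK-like cells 3 higher and 21 lower (60.8% called, 29.9% higher and 30.9% lower, medians -0.82 and -0.06). Most called members were thus higher in the first 3 classes and lower in the other 3. The dendritic-like total of called members lies near its background, but its split into 2 higher and 14 lower does not. Without DKO replicate 1 the macrophage- and monocyte-like count fell from 17 to 9, and Aldoa, Gapdh, Gpi1, Pgam1, Pgk1, Tpi1, P4ha1 and Slc16a1 lost their calls there.

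The 24 glycolysis genes summed to 6661, 5542, 5713 and 5371 CPM in neutrophil-like cells of DKO replicates 1 and 2 and TKO replicates 1 and 2. In epithelial-like cells the same sum was 6321, 7278, 4298 and 4631 CPM, and in macrophage- and monocyte-like cells 6811, 5662, 5349 and 4969 CPM. T- and NK-like cells gave the lowest mean, with 2549, 3397, 3198 and 2639 CPM in the same order, below every library of those 3 classes. The 8 hypoxia-induced genes summed to 1192, 1068, 1226 and 1100.1 CPM in neutrophil-like cells, above every epithelial-like library (669, 938, 451 and 759.9 CPM). Vegfa alone made up 745, 748, 835 and 763 CPM of the neutrophil-like sum. In epithelial-like cells it was at 9.87% to 21.3% of that level, so the order of the 2 classes rested on Vegfa.

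Among the glucose transporters, Slc2a3 (GLUT3, a high-affinity carrier; mm10 chromosome 6, 122727809 to 122801640) was the member that differed most between classes. It stood at 356 and 409.9 CPM in neutrophil-like cells of the DKO libraries and 245 and 322 CPM in those of the TKO libraries. The other 5 classes reached at most 55.3 CPM, in T- and NK-like cells of DKO replicate 1, and the groups do not overlap. The difference of neutrophil-like cells from the mean of the other classes was 5.42 ± 0.23 (adjusted p = 5.3e-14). Slc2a1 (GLUT1, the widespread basal carrier; mm10 chromosome 4, 119108711 to 119137983) was also highest in neutrophil-like cells, at 285 and 253 CPM (DKO) and 292 and 229.8 CPM (TKO), a difference of 2.26 ± 0.11 (adjusted p = 4.0e-14). Epithelial-like cells followed with 148 and 174 and 117 and 101.3 CPM (0.52 ± 0.12, adjusted p = 0.0011; without DKO replicate 2 0.35, adjusted p = 0.064). Slc2a1 was lower in T- and NK-like cells (-1.33 ± 0.14) and fibroblast-like cells (-1.36 ± 0.14), and Slc2a3 was lower in epithelial-like (-3.03 ± 0.48) and macrophage- and monocyte-like cells (-2.21 ± 0.49).

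Of the UMIs of both carriers, Slc2a3 took 55.3% ± 6.96 in neutrophil-like cells (SD, n = 4 libraries), 36.8% ± 11.5 in T- and NK-like, 26.3% ± 11.9 in fibroblast-like, 18.1% ± 7.30 in dendritic-like, 4.79% ± 5.33 in macrophage- and monocyte-like and 3.16% ± 1.72 in epithelial-like cells. The T- and NK-like mean rested on DKO replicate 1, where the share was 54.0% against 31.2%, 31.7% and 30.05% in the other libraries. The neutrophil markers in those T- and NK-like cells were at their lowest in that library (179 CPM summed over 10 genes, against 185, 370.4 and 273). Cluster 12 of this class, led by Foxp3, held 27 of 70 cells there, against 36 of 164, 41 of 266 and 24 of 221. The 10 genes that cell dissociation is known to induce summed to 3577 CPM there, against 2070, 2131 and 2274. The part of either in the share was not tested. With a stricter filter on cells (500 genes or more and no more than 10% mitochondrial UMIs), clusters led by Siglecf and Il23a were no longer named, and the neutrophil-like share of Slc2a3 was 65.2%. In other classes the 10 neutrophil markers summed to 0.335% to 2.58% of their neutrophil-like level, while Slc2a3 in T- and NK-like cells was at 4.60% to 15.5% of its neutrophil-like level and in epithelial-like cells at 0.579% to 1.76%. The part of free neutrophil RNA in these low levels was not tested.

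**Figure D2:**
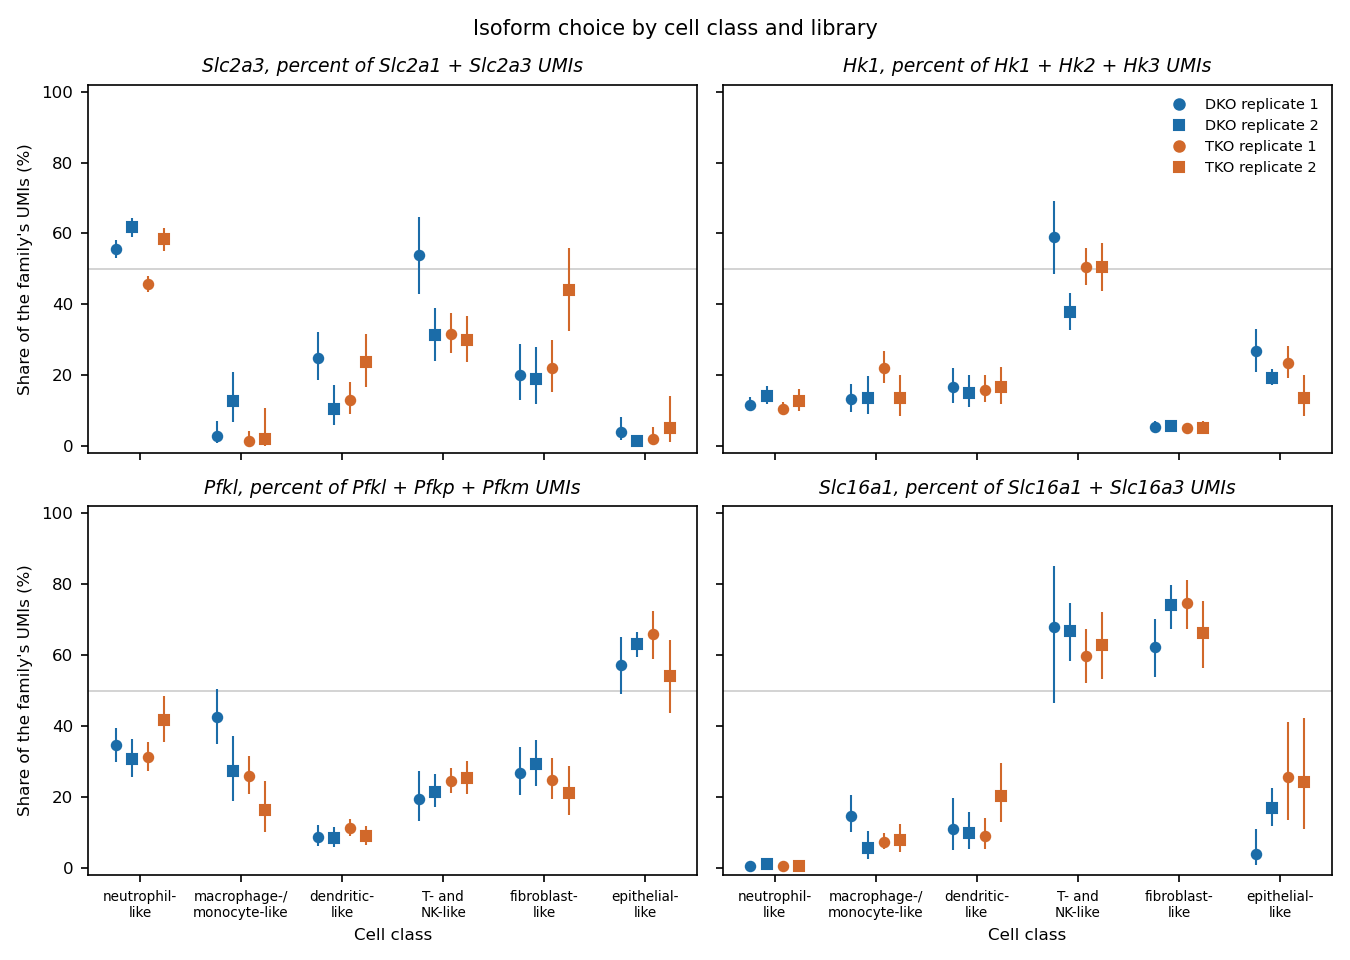
Share of 1 isoform in the UMIs of its family, 1 point per library and class with exact 95% binomial intervals, for Slc2a3, Hk1, Pfkl and Slc16a1. Neutrophil-like cells sit highest for Slc2a3 (45.6% to 61.8%) except for DKO replicate 1 of the T- and NK-like cells, T- and NK-like cells highest for Hk1 (37.9% to 59.1%), epithelial-like cells highest for Pfkl (54.2% to 66.0%), and fibroblast-like and T- and NK-like cells highest for Slc16a1.

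The hexokinases divided the classes in another way. Hk2, the inducible isoform (mm10 chromosome 6, 82725025 to 82774454), was highest in fibroblast-like cells, at 468 and 441 CPM in the DKO and 424 and 438 CPM in the TKO libraries (1.70 ± 0.14, adjusted p = 3.6e-10). Neutrophil-like cells had 362 and 252 and 276 and 181 CPM (1.14 ± 0.14, adjusted p = 4.5e-07), all below the fibroblast-like libraries. T- and NK-like cells had 43.5 and 79.6 and 44.6 and 37.4 CPM, the lowest of the 6 classes (-2.32 ± 0.19, adjusted p = 6.5e-10). Hk1, the constitutive isoform that binds mitochondria, varied less, from 20.3 CPM in dendritic-like to 64.7 CPM in T- and NK-like cells. In the fit, Hk1 was higher in neutrophil-like cells (0.75 ± 0.12) and, with less support, in epithelial-like (0.42 ± 0.13; without TKO replicate 1 0.29, adjusted p = 0.15) and T- and NK-like cells (0.29 ± 0.13; without DKO replicate 2 0.28, adjusted p = 0.14). By CPM, no neutrophil-like library reached the 64.7 CPM of T- and NK-like cells. Hk3, an isoform known from myeloid cells, stood at 36.6 and 78.2 and 55.5 and 73.0 CPM in neutrophil-like cells (4.43 ± 0.24, adjusted p = 2.9e-13) and 28.6 and 13.6 and 23.4 and 34.3 CPM in macrophage- and monocyte-like cells (2.56 ± 0.31, adjusted p = 7.2e-07). No other class passed 5.43 CPM for Hk3 in any library.

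As a share of all hexokinase UMIs, Hk2 made up 94.2% ± 0.255 in fibroblast-like, 82.2% ± 1.45 in dendritic-like, 78.3% ± 5.05 in epithelial-like, 73.1% ± 6.96 in macrophage- and monocyte-like and 70.5% ± 8.28 in neutrophil-like cells (SD, n = 4). In T- and NK-like cells it was 48.3% ± 8.26, beside 49.6% ± 8.78 for Hk1, so that the leading isoform changed from library to library (59.1% Hk1 in DKO replicate 1 and 37.9% in DKO replicate 2). The mix of clusters in this class also differed by library, as given above, and its part in these shares was not tested. Clusters 5 (204 cells, with Zbtb16 and Il17a among its leading genes) and 13 (88 cells, with Trdc) stayed unnamed and lie outside this class. Their T and NK markers summed to 2974 and 2933 CPM, pooled over the libraries. Hk2 was at 112 and 125 CPM pooled in them and Hk1 at 32.6 and 29.8 CPM. Hk3 took 17.1% ± 7.27 in neutrophil-like and 11.3% ± 4.11 in macrophage- and monocyte-like cells.

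Phosphofructokinase, the step that commits glucose to glycolysis, was mostly Pfkp (the platelet form) in 5 classes and Pfkl (the liver form) in epithelial-like cells. Pfkl was 60.1% ± 5.39 of the family's UMIs in epithelial-like cells (SD, n = 4; 54.2% to 66.0%), and its highest share elsewhere was 42.5%, in macrophage- and monocyte-like cells of DKO replicate 1. The epithelial-like level of Pfkl was 81.5 and 123 CPM in the DKO and 84.4 and 94.1 CPM in the TKO libraries (1.34 ± 0.15, adjusted p = 1.1e-07), with Pfkp lower (-1.14 ± 0.15). Dendritic-like cells were at the other end: Pfkp stood at 300.2 and 237 and 203 and 245 CPM (1.55 ± 0.12, adjusted p = 5.7e-10), 90.0% ± 1.23 of the family, above every library of the other 5 classes. Pfkp shares were 75.4% ± 1.94 in T- and NK-like, 70.5% ± 10.9 in macrophage- and monocyte-like, 66.0% ± 5.88 in fibroblast-like and 65.2% ± 4.94 in neutrophil-like cells. Pfkm, the muscle form, had its highest mean in fibroblast-like cells, at 10.9 and 8.95 and 7.44 and 5.11 CPM (2.34 ± 0.35, adjusted p = 5.0e-06; 8.46% ± 2.53 of the family). In neutrophil-like cells all 4 libraries together held 2 Pfkm UMIs. Epithelial-like Pfkm was also higher (1.54 ± 0.40), a call lost without TKO replicate 1 (0.97, adjusted p = 0.089).

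The bifunctional enzymes Pfkfb3 and Pfkfb4 set the level of fructose 2,6-bisphosphate, which activates phosphofructokinase. Pfkfb3 was highest in neutrophil-like cells, at 130.3 and 139 CPM in the DKO and 98.7 and 101.9 CPM in the TKO libraries (1.98 ± 0.15, adjusted p = 1.2e-10), and lowest in fibroblast-like cells (7.82 to 20.4 CPM; -2.09 ± 0.22, adjusted p = 2.1e-08). Pfkfb4 was higher in neutrophil-like (31.9 and 48.3 and 29.9 and 27.7 CPM; 2.42 ± 0.23) and macrophage- and monocyte-like cells (20.01 and 21.0 and 19.3 and 25.7 CPM; 1.23 ± 0.28), and lower in T- and NK-like (-2.51 ± 0.36) and fibroblast-like cells (-1.11 ± 0.33). Pfkfb3 was the larger part of the pair in every class, from 67.9% ± 2.45 in macrophage- and monocyte-like to 94.95% ± 4.24 in T- and NK-like cells.

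The lower pathway was led by its abundant enzymes. Gapdh, which oxidises glyceraldehyde 3-phosphate, stood at 1509.7 and 1647 CPM in epithelial-like cells of the DKO libraries and 915 and 803 CPM in those of the TKO libraries, and at 1706 and 1584 and 1379 and 1129.7 CPM in macrophage- and monocyte-like cells. Within the epithelial-like class the genotypes did not overlap for Gapdh, and that comparison is given further on. Aldoa, the main aldolase, was higher in epithelial-like cells (1053 and 1199.6 and 663 and 709 CPM; 0.90 ± 0.12, adjusted p = 9.4e-07) and in neutrophil-like cells (679 and 429 and 640.3 and 545 CPM; 0.69 ± 0.12, adjusted p = 2.9e-05). Epithelial-like cells were also higher in Tpi1 (triose-phosphate isomerase; 1.39 ± 0.16, adjusted p = 8.3e-08) and Pgk1 (phosphoglycerate kinase, whose promoter is printed above; 0.89 ± 0.14, adjusted p = 1.2e-05), with Tpi1 at 497 and 485 and 331 and 391 CPM. Pgk1 was higher in neutrophil-like cells as well (1.001 ± 0.14), where Tpi1 was not called (0.37 ± 0.17, adjusted p = 0.060). Macrophage- and monocyte-like cells had the highest mean CPM of Eno1 (enolase; 508 and 465 and 479.7 and 436 CPM; 0.94 ± 0.12, adjusted p = 2.1e-06) and of Pkm (pyruvate kinase; 739 and 649 and 673 and 737 CPM; 0.88 ± 0.11, adjusted p = 1.6e-06), 2 calls that held without each library in turn. Pkm was nearly as high by CPM in neutrophil-like cells, where its fitted difference was the larger (687 and 595 and 604 and 655 CPM; 1.08 ± 0.11), and the 2 ranges overlap. A 3′ count does not separate the M1 and M2 splice forms of Pkm. In T- and NK-like cells Aldoa (-0.98), Tpi1 (-1.41), Gapdh (-0.63), Pgk1 (-0.9998), Pgam1 (-1.44), Eno1 (-0.66) and Pkm (-1.23) were all lower than the mean of the other classes. Gpi1, phosphoglucose isomerase, was called lower in T- and NK-like (-0.29 ± 0.12) and fibroblast-like cells (-0.28 ± 0.12) and higher in macrophage- and monocyte-like cells (0.46 ± 0.11). Without TKO replicate 1 the first 2 adjusted p-values became 0.080 and 0.12, and without DKO replicate 1 the third became 0.11.

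The second isoforms of aldolase and enolase were minor. Aldoa held at least 96.9% of the aldolase UMIs on average in every class, and Aldoc, the brain form, was called higher in epithelial-like cells (15.2 and 24.8 and 11.5 and 16.3 CPM; 1.86 ± 0.40, adjusted p = 0.00042). Its dendritic-like call (1.16 ± 0.42, adjusted p = 0.029) was lost without TKO replicate 2 (0.76, adjusted p = 0.26). Eno2, the neuronal enolase, was found mainly in fibroblast-like cells, at 14.7 and 13.6 CPM in the DKO and 10.05 and 5.84 CPM in the TKO libraries (3.50 ± 0.47, adjusted p = 9.1e-07), or 5.21% ± 2.09 of the enolase UMIs. T- and NK-like cells had 14.1 and 3.77 and 1.55 and 1.07 CPM, and their call (1.32 ± 0.55, adjusted p = 0.044) rested on DKO replicate 1 (without it 0.73, adjusted p = 0.26).

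Lactate dehydrogenase was almost entirely Ldha, the subunit that favours lactate formation, in every class (92.6% ± 2.78 of Ldha and Ldhb UMIs in fibroblast-like to 98.9% ± 0.478 in neutrophil-like cells). Ldha itself was called in 1 class: the T- and NK-like class passed, lower at -0.53 ± 0.14 with an adjusted p of 0.0029, and without DKO replicate 1 it did not (-0.35, adjusted p = 0.080). Ldhb was highest in fibroblast-like cells, at 41.5 and 25.6 and 36.5 and 20.4 CPM (1.52 ± 0.34, adjusted p = 0.00059; 7.45% ± 2.78 of the pair), and lowest in neutrophil-like cells (5.96 and 2.06 and 5.18 and 2.41 CPM; -1.67 ± 0.48, adjusted p = 0.0048; without DKO replicate 1 -1.55, adjusted p = 0.059).

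The lactate carriers separated the classes more sharply than the enzyme did. Slc16a3 (MCT4, a carrier of highly glycolytic cells; mm10 chromosome 11, 120948480 to 120960868) stood at 642 and 750.3 CPM in neutrophil-like cells of the DKO libraries and 578 and 814 CPM in those of the TKO libraries (4.28 ± 0.17, adjusted p = 2.2e-15). Macrophage- and monocyte-like cells were next, with 154 and 184 and 257 and 267 CPM (1.91 ± 0.19, adjusted p = 4.6e-08), and T- and NK-like cells lowest, with 9.42 and 17.0 and 17.8 and 14.2 CPM (-2.91 ± 0.27, adjusted p = 6.0e-09). These 3 classes do not overlap in any library. The T- and NK-like level is 1.47% to 3.08% of the neutrophil-like level in the same library, and the neutrophil markers there are at 0.335% to 0.945%. Slc16a1 (MCT1, which works in both directions) had another order: it was highest in fibroblast-like cells (56.9 and 64.3 and 47.3 and 50.3 CPM; 2.35 ± 0.19, adjusted p = 3.9e-10), higher in T- and NK-like cells (20.01 and 34.3 and 26.6 and 24.2 CPM; 0.82 ± 0.21, adjusted p = 0.0020) and lower in neutrophil-like cells (2.55 and 7.71 and 3.45 and 4.82 CPM; -1.63 ± 0.29, adjusted p = 4.1e-05). With the stricter cell filter the neutrophil-like difference of Slc16a1 was -0.87, adjusted p = 0.051. Slc16a1 was 69.3% ± 6.06 of the pair in fibroblast-like and 64.4% ± 3.73 in T- and NK-like cells, and Slc16a3 was 99.4% ± 0.262 in neutrophil-like, 91.1% ± 3.99 in macrophage- and monocyte-like, 87.5% ± 5.23 in dendritic-like and 82.4% ± 9.96 in epithelial-like cells. Unnamed clusters 5 and 13 lie outside the T- and NK-like class. Pooled, they held Slc16a1 at 18.4 and 7.44 CPM and Slc16a3 at 18.8 and 34.0 CPM.

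The 8 hypoxia-induced genes did not share one class. Vegfa, the main angiogenic growth factor, was highest in neutrophil-like cells, at 745 and 748 CPM in the DKO and 835 and 763 CPM in the TKO libraries (2.92 ± 0.15, adjusted p = 2.8e-13). Macrophage- and monocyte-like cells followed, with 483 and 205 and 315 and 289.9 CPM (1.03 ± 0.18, adjusted p = 7.9e-05), and epithelial-like cells were lower (-0.89 ± 0.20). Egln3, the oxygen-sensing prolyl hydroxylase PHD3 (mm10 chromosome 12, 54178981 to 54203860), and Bnip3, a mitophagy receptor (mm10 chromosome 7, 138890836 to 138909519), were high in both neutrophil-like and epithelial-like cells. Egln3 stood at 180.0 and 244 and 94.6 and 152 CPM in epithelial-like cells (2.73 ± 0.28, adjusted p = 6.4e-08) and at 159 and 62.7 and 106 and 101.3 CPM in neutrophil-like cells (2.47 ± 0.28, adjusted p = 1.8e-07), with overlapping ranges. Bnip3 stood at 116 and 153 and 53.0 and 103 CPM in epithelial-like cells (2.02 ± 0.24) and 97.5 and 71.0 and 86.9 and 66.9 CPM in neutrophil-like cells (2.13 ± 0.23), and was lower in T- and NK-like (-2.70 ± 0.34) and dendritic-like cells (-1.88 ± 0.33). Pdk1, the kinase that turns pyruvate dehydrogenase off, was called higher in epithelial-like cells and in none of the other 5 classes (21.5 and 35.6 and 26.8 and 45.2 CPM; 1.21 ± 0.23, adjusted p = 0.00014). In all, 6 of the 8 genes were higher in epithelial-like cells, where 30.4% of all genes were higher. Ankrd37 was at 25.1 and 49.3 and 22.4 and 5.43 CPM in epithelial-like cells (1.78 ± 0.28, adjusted p = 9.8e-06), and TKO replicate 2 was below the other 3 libraries.

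Fibroblast-like cells had high levels of the other 3. Ndrg1, a stress-response gene, stood at 359 and 417 and 448 and 346 CPM (2.30 ± 0.13, adjusted p = 1.2e-12), above every library of the other 5 classes, and was lower in neutrophil-like (-1.01 ± 0.17) and T- and NK-like cells (-1.40 ± 0.18). P4ha1, which hydroxylates collagen prolines and whose promoter is printed above, was at 90.8 and 129 and 114 and 116 CPM (0.81 ± 0.12, adjusted p = 3.3e-06), but neutrophil-like cells were as high (109.8 and 105 and 121 and 88.1 CPM; 1.04 ± 0.12) and the ranges overlap. Adm, which encodes the vasodilator adrenomedullin, was sparse, with overlapping ranges: 16.6 and 20.4 and 19.4 and 15.3 CPM in fibroblast-like (2.14 ± 0.51, adjusted p = 0.0011) and 17.0 and 36.9 and 7.67 and 30.8 CPM in epithelial-like cells (2.27 ± 0.54, adjusted p = 0.0013).

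Set directly against T- and NK-like cells, neutrophil-like cells were higher in 23 of the 32 genes and lower in 3, with 60.2% of all genes called (28.8% higher, 31.4% lower); the median was 1.39 for the 32 genes and -0.02 for all genes. The largest differences were Slc16a3 (5.995 ± 0.32, adjusted p = 1.6e-12), Hk3 (5.14 ± 0.40), Slc2a3 (4.16 ± 0.37), Pfkfb4 (4.11 ± 0.39) and Bnip3 (4.02 ± 0.38), and Slc16a1 was lower (-2.04 ± 0.33, adjusted p = 1.2e-05). Eno2 and Pfkm, also called lower, rest on 3 Eno2 and 2 Pfkm UMIs in all neutrophil-like cells. Ldha (0.42 ± 0.18, adjusted p = 0.047) and Gpi1 (0.11 ± 0.15, adjusted p = 0.56) were near even.

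Other genes of these pathways, in 8 lists, were read in the same contrasts, and each count stands beside the share of all genes called in that direction. In the list of HIF pathway genes (8 tested), neutrophil-like cells were higher in 4 and lower in 3 (median 0.27; 29.2% of all genes were higher and 34.1% lower): Arnt (1.27 ± 0.12) and Hif1a (1.28 ± 0.12) were higher and Epas1, which encodes HIF-2α, lower (-3.32 ± 0.35). Epithelial-like cells had 3 higher and 4 lower (30.4% and 24.6% of all genes), with Hif1a (-1.72 ± 0.16), Arnt (-1.39 ± 0.15) and Vhl (-1.33 ± 0.24), the ubiquitin ligase subunit that marks HIF, all lower. T- and NK-like cells had 5 higher and 1 lower (29.9% and 30.9% of all genes), among the higher ones Epas1 (3.16 ± 0.19) and Arnt2 (4.64 ± 0.35). Fibroblast-like cells had 3 and 3 (36.4% and 27.3%), macrophage- and monocyte-like cells 2 and 0 (18.6% and 14.7%), and dendritic-like cells 2 and 2 (22.3% and 20.2%). With 8 genes, 1 gene is a large part of each share.

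Of 27 further hypoxia targets tested, epithelial-like cells were higher in 16 and lower in 4, with a median of 0.67 against 0.03 for all genes, of which 30.4% were higher and 24.6% lower (Car12, a carbonic anhydrase, 5.49 ± 0.29; P4ha2 3.28 ± 0.23), and fibroblast-like cells were higher in 12 and lower in 9, near the 36.4% and 27.3% of all genes, with a median of 0.07 against 0.10 (Lox, a collagen cross-linking oxidase, 6.36 ± 0.14; Angptl4 4.67 ± 0.29). Neutrophil-like cells were higher in 9 and lower in 6, where 29.2% of all genes were higher and 34.1% lower, and the median of -0.34 lay near the -0.25 of all genes, with the lipid-droplet genes Plin2 (2.44 ± 0.13) and Hilpda (2.92 ± 0.17) and the oxidase Ero1l (2.31 ± 0.17) among the higher. T- and NK-like cells had 5 higher and 13 lower (29.9% and 30.9% of all genes), dendritic-like cells 2 and 14 (22.3% and 20.2%), and macrophage- and monocyte-like cells 4 and 4 (18.6% and 14.7%), where Plin2 was higher (2.32 ± 0.13).

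In the neutrophil-like contrast, 29.2% of all genes were higher and 34.1% lower, with a median of -0.25. There 6 of 10 genes of glycogen metabolism were higher and 1 lower (median 0.71), led by Pygl, the liver-type glycogen phosphorylase (3.49 ± 0.16, adjusted p = 1.3e-14), with its brain-type counterpart Pygb lower (-2.34 ± 0.29); epithelial-like cells had the opposite pair, Pygb 2.38 ± 0.19 and Pygl -3.25 ± 0.29. The serine branch was lower in neutrophil-like cells in 4 of 5 genes (median -2.43), among them Phgdh, its first enzyme (-2.43 ± 0.42), and higher in T- and NK-like cells in 4 of 5, with a median of 1.10 against -0.06 for all genes, of which 29.9% were higher (Phgdh 2.48 ± 0.24). Of 11 genes of pyruvate entry into mitochondria, 0 were higher and 5 lower in neutrophil-like cells, against 34.1% of all genes lower (Pdha1, a pyruvate dehydrogenase subunit, -1.25 ± 0.14). Of 7 pentose phosphate genes, 2 were higher and 2 lower in neutrophil-like cells, while macrophage- and monocyte-like cells had 4 higher (Pgd 1.33 ± 0.10, Tkt 1.25 ± 0.12) and 1 lower (18.6% and 14.7% of all genes). Of 10 other glycolysis genes, 3 were higher and 5 lower in neutrophil-like cells (Slc2a6, another glucose carrier, 3.61 ± 0.20). Of 3 gluconeogenesis genes tested, all 3 were higher in epithelial-like and in fibroblast-like cells (30.4% and 36.4% of all genes) and 2 were lower in neutrophil-like cells. Of 10 genes that cell dissociation is known to induce, 8 were higher in epithelial-like cells (30.4% of all genes), 7 in fibroblast-like cells (36.4%) and 4 in neutrophil-like cells, the last near its 29.2%, and 9 were lower in T- and NK-like cells (30.9%). Their part in the class differences was not tested.

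The neutrophil-like cells came from 4 clusters that differed in these genes. Cluster 0 (388 cells, led by Retnlg and Mmp8) and cluster 3 (278 cells, led by the interferon-induced Rsad2 and Ifit2) carried most of the Slc2a3, and cluster 1 (371 cells, led by Ltc4s and Siglecf) and cluster 2 (304 cells, led by Il23a and Il1a) little. Slc2a3 was at 1168 and 803 CPM in the DKO and 648 and 493 CPM in the TKO libraries in cluster 0, at 254 and 384 and 469.7 and 365 in cluster 3, at 44.4 and 73.2 and 129 and 111 in cluster 2, and at 19.4 and 9.86 and 55.7 and 126 in cluster 1. No library of clusters 1 or 2 reached the lowest value of cluster 3. As a share of both carriers Slc2a3 was 71.5% ± 4.45 in cluster 0, 56.7% ± 2.71 in cluster 3, 26.0% ± 6.83 in cluster 2 and 16.1% ± 13.4 in cluster 1 (SD, n = 4). Clusters 1 and 2 scored 0.656 and 0.544 for neutrophil markers, just above the 0.5 that a name required. The clusters were drawn from other genes of the same cells, so the counts that follow describe size against the spread between libraries.

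Each cluster was set against the mean of the other 3, with 26 of the 32 genes tested. Cluster 0 had 11 genes higher and 2 lower (45.7% of all genes called, 24.8% higher and 21% lower), cluster 1 had 1 higher and 14 lower (57.5%, 28.9% higher and 28.6% lower), cluster 2 had 0 higher and 10 lower (19.8%, 8.96% higher and 10.8% lower; 3 without TKO replicate 1, 5 without TKO replicate 2 and 6 without DKO replicate 2) and cluster 3 had 17 higher and 0 lower (23%, 17.9% higher and 5.14% lower). By CPM, which lacks the scaling of the fit, cluster 1 was not low in the enzymes. The 18 enzymes from hexokinase to lactate dehydrogenase summed to a mean of 5169 CPM there. Clusters 0, 2 and 3 had 3600, 4039 and 4775 CPM, and the range of cluster 1 overlapped those of clusters 2 and 3. Cluster 0 was higher in Slc2a3 (3.29 ± 0.42), Slc16a3 (1.77 ± 0.13; 1286 and 1216 and 1182 and 1201 CPM) and Pfkfb3 (1.09 ± 0.20), and lower in Hk2 (-1.24 ± 0.19; 50.6 to 157 CPM). So its hexokinase UMIs were 48.7% ± 10.9 Hk2, against 86.6% ± 2.94 in cluster 1. Cluster 3 was higher in Hk3 (1.74 ± 0.24; 61.6 to 164 CPM), Pfkl (1.45 ± 0.21), Hk1 (1.40 ± 0.26) and Bnip3 (1.27 ± 0.19). Vegfa was the 1 gene higher in cluster 1 (0.63 ± 0.14, adjusted p = 0.00091), at 1258 and 1128 and 1288 and 1386 CPM, against 306 to 577 CPM in cluster 0.

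**Figure D3:**
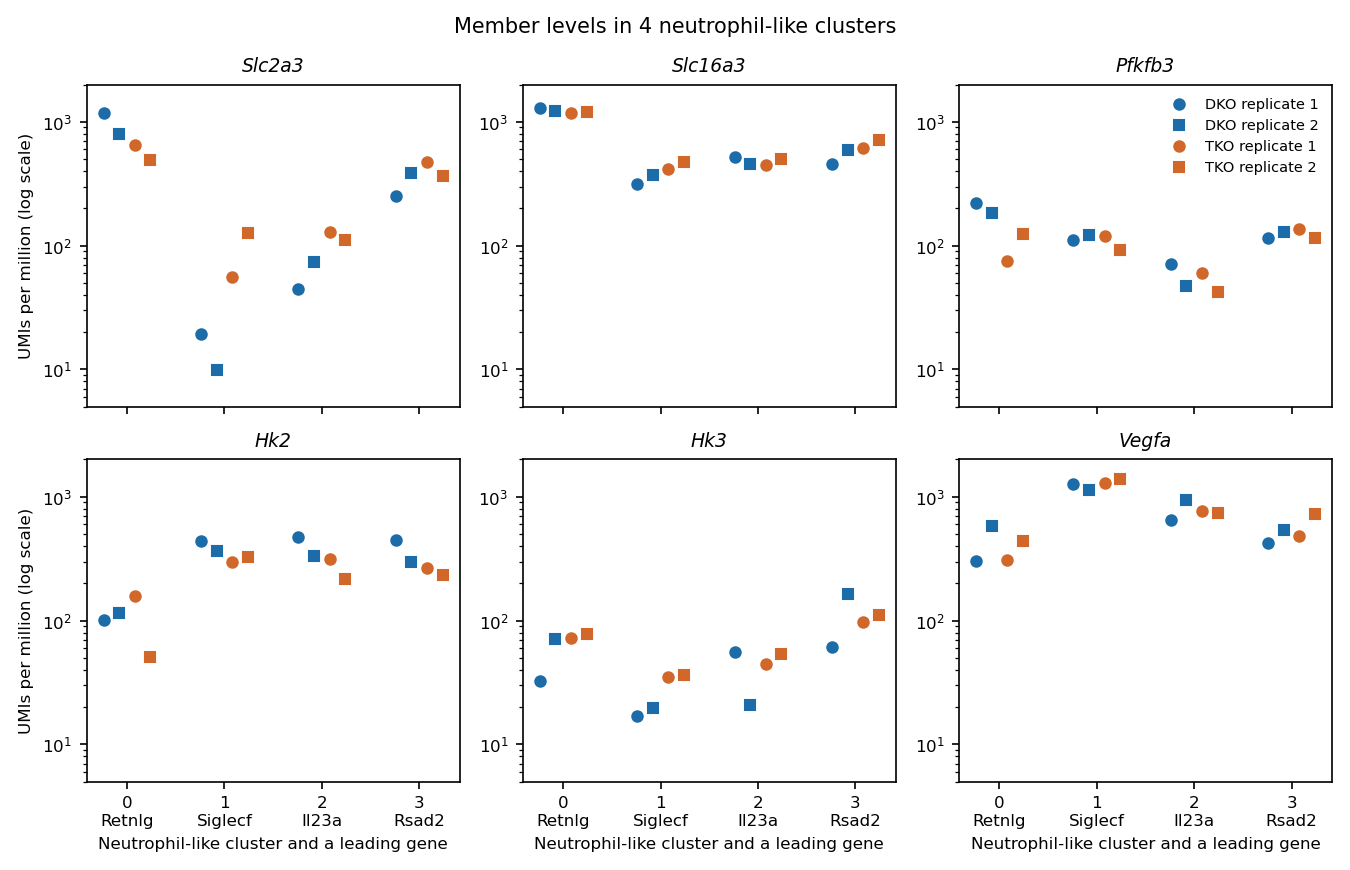
CPM on a log axis of Slc2a3, Slc16a3, Pfkfb3, Hk2, Hk3 and Vegfa in the 4 neutrophil-like clusters, 1 point per library. Slc2a3 and Slc16a3 are highest in cluster 0 (Slc16a3 1182 to 1286 CPM), where Hk2 is lowest, and Vegfa is highest in cluster 1 (1128 to 1386 CPM).

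The TKO-labelled libraries were compared with the DKO libraries in all cells summed and in each class. No member passed the threshold in any of these fits. The sum over all cells included the unnamed clusters. These gave 7.88% and 6.48% of UMIs in the DKO and 7.53% and 12.3% in the TKO-labelled libraries. In all cells summed, 0 of 32 members were called, as were 0% of 15466 genes. 30 of the 32 were lower in the TKO-labelled libraries, with a median of -0.47 against -0.02 over all genes. 15 were lower and 0 higher at an unadjusted p under 0.05, where 11.8% of all genes stood (7.76% lower). The DKO libraries had 85.1 and 83.6 CPM of Egln3 and the TKO-labelled ones 45.8 and 40.3 CPM (-1.02 ± 0.14, adjusted p = 0.20), Bnip3 60.2 and 57.4 and 34.7 and 27.4 CPM (-0.96 ± 0.17, adjusted p = 0.21), and Ankrd37 12.3 and 19.1 and 7.46 and 5.14 CPM (-1.35 ± 0.31, adjusted p = 0.26). For each of the 3 the groups do not overlap. DESeq2 called these 3 genes lower (log2 differences of -0.99, -0.94 and -1.33, adjusted p = 0.00033, 0.0073 and 0.038), and edgeR without a filter on low counts called the same 3 (adjusted p = 0.0042, 0.012 and 0.033). The share of all genes called under either setting is not given, so these calls stand without a background. The makeup of the libraries also differed: epithelial-like cells, where Egln3, Bnip3 and Ankrd37 were high, gave 12.2% and 25.9% of all UMIs in the DKO and 8.52% and 5.26% in the TKO-labelled libraries. T- and NK-like cells, where most called members were lower, gave 9.27% and 18.1% in the DKO and 21.1% and 26.8% in the TKO-labelled libraries. By number, epithelial-like cells were 5.67% and 11.6% of cells in the DKO and 4.30% and 3.26% in the TKO-labelled libraries. Their median UMIs per cell also differed and are given below. A sum over all cells mixes the number of cells of a type with the RNA of each cell. The part of either in these differences was not tested.

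**Figure D4:**
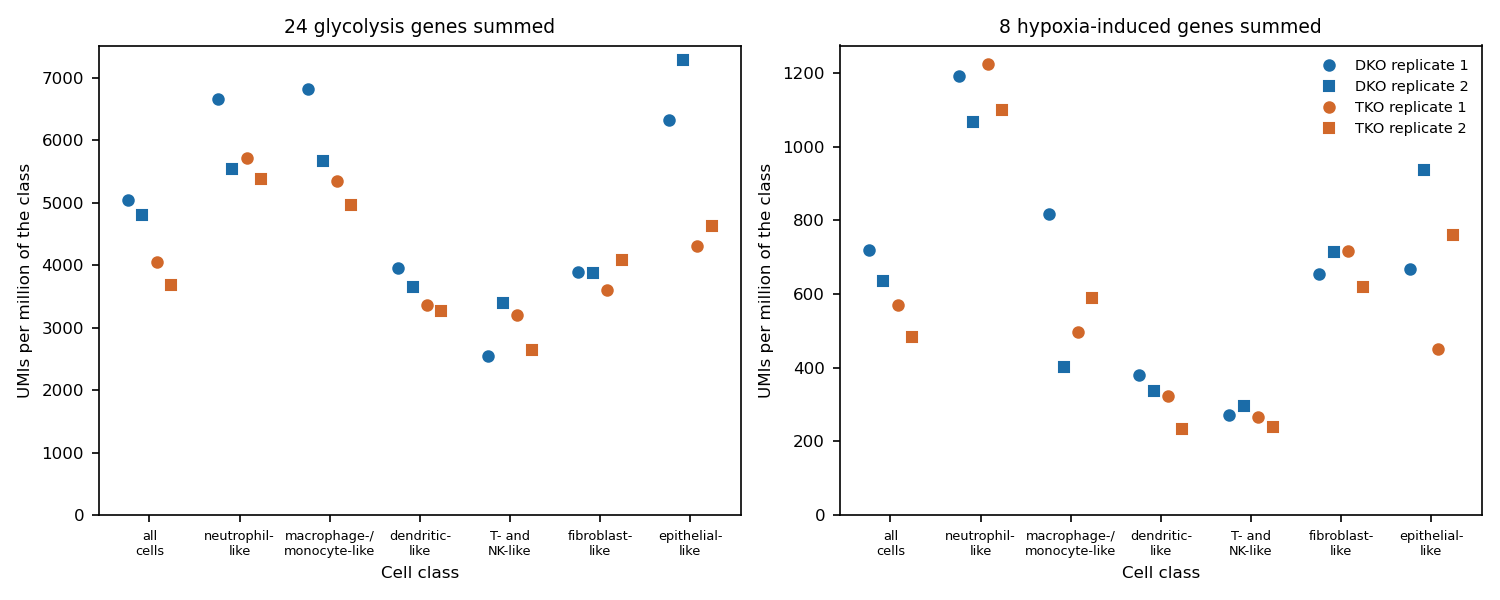
CPM summed over the 24 glycolysis genes and over the 8 hypoxia-induced genes, in all cells and in each class, 1 point per library. In all cells both DKO libraries lie above both TKO-labelled ones for the glycolysis sum (5036 and 4801 against 4045 and 3682 CPM), and within neutrophil-like cells the genotypes overlap.

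In epithelial-like cells, the cells in which the driver acts, 28 members were tested, 0 were called (0% of 9768 genes) and 6 were lower at an unadjusted p under 0.05, which 5.68% of all genes passed in either direction. 24 of the 28 were lower in the TKO-labelled libraries, with a median of -0.50 against 0.02 over all genes. The smallest p-values were those of Gapdh (-0.87 ± 0.29, adjusted p = 0.83), Egln3 (-0.81 ± 0.28, adjusted p = 0.84) and Ldhb (-2.26 ± 0.79, adjusted p = 0.84). Levels of Ldhb were 26.0 and 33.2 CPM in the 2 DKO libraries, 8.95 CPM in TKO replicate 1 and 0 UMIs in TKO replicate 2, where 3 counts would be 5.43 CPM. It was called lower without the filter on low counts (adjusted p = 0.0018) and, at 0.045, without TKO replicate 1. The 24 glycolysis genes summed to 6321 and 7278 CPM in the DKO and 4298 and 4631 CPM in the TKO-labelled libraries, without overlap, while the sum of the hypoxia-induced genes overlapped. Depth and the class's own markers moved with genotype here, without overlap: the median epithelial-like cell had 20132 and 21763.5 UMIs in the DKO and 10172.5 and 8202 in the TKO-labelled libraries, and the 11 epithelial markers summed to 13404, 13524, 12422 and 10859 CPM. The part of either in the differences was not tested. The 10 dissociation-induced genes (7581, 8300.2, 8138 and 14499 CPM in the same order) and the median mitochondrial share (3.31%, 3.66%, 2.12% and 3.34% of UMIs) overlapped between genotypes.

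In neutrophil-like cells 28 members were tested, 0 were called (0.0113% of all genes) and 22 were lower in the TKO-labelled libraries (median -0.17). The smallest p-values were those of Hk1 (52.8 and 55.0 against 39.1 and 37.4 CPM; -0.56 ± 0.24, adjusted p = 1.00), Pfkfb3 (130.3 and 139 against 98.7 and 101.9 CPM; -0.50 ± 0.23, adjusted p = 1.00) and Ankrd37 (-0.72 ± 0.34). The libraries mixed the 4 clusters differently (cluster 2 held 85 and 29 cells in the DKO and 149 and 41 in the TKO-labelled libraries), and within clusters 0, 1, 2 and 3 again 0 members were called (0.022%, 0.135%, 0.0599% and 0.0711% of all genes). Slc2a3 differed in opposite directions there: -0.93 ± 0.29 in cluster 0 (adjusted p = 0.76) and 2.42 ± 0.47 in cluster 1 (adjusted p = 0.087). Leaving out DKO replicate 2 gave 2 calls in each of clusters 0 and 1, and leaving out DKO replicate 1 or TKO replicate 1 gave 1 call in cluster 1.

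Macrophage- and monocyte-like cells had 0 of 27 members called (0.0264% of all genes), with 4 lower and 1 higher at an unadjusted p under 0.05, which 7.12% of all genes passed: Aldoa (-0.64 ± 0.23, adjusted p = 0.59) and Ankrd37 (-1.64 ± 0.58) had the smallest p among the lower, and Slc16a3 was the higher one (154 and 184 against 257 and 267 CPM; 0.57 ± 0.23, adjusted p = 0.64). The 11 markers of this class summed to 17120.4, 21135, 14492 and 7143 CPM in DKO replicates 1 and 2 and TKO replicates 1 and 2, and the part of that shift was not tested. T- and NK-like cells had 0 of 27 called (0.0192%), with Eno2 (-2.43 ± 0.79), Pfkfb3 (50.6 and 44.9 against 73.0 and 61.2 CPM; 0.50 ± 0.20) and Hk2 (-0.67 ± 0.27) at the smallest p (adjusted p = 0.72, 0.86 and 0.87). The libraries mixed the 5 clusters of this class differently: cluster 12, led by Foxp3, held 27 and 36 of 70 and 164 cells in the DKO and 41 and 24 of 266 and 221 in the TKO-labelled libraries, and cluster 4, led by Gzmk and Cd8b1, held 15, 39, 113 and 64 cells. The part of this mixing in the T- and NK-like differences was not tested. Dendritic-like cells had 0 of 27 called (0.0331%), with Ldhb (-1.71 ± 0.54), Hk2 (-0.48 ± 0.17) and Ndrg1 (-0.45 ± 0.17) at the smallest p (adjusted p = 0.52 to 0.67). Fibroblast-like cells had 0 of 30 called (0%) and 0 at an unadjusted p under 0.05, with Vegfa (-0.37 ± 0.18), Eno2 (-0.77 ± 0.40) and Slc16a1 (-0.32 ± 0.20) at the smallest p.

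**Figure D5:**
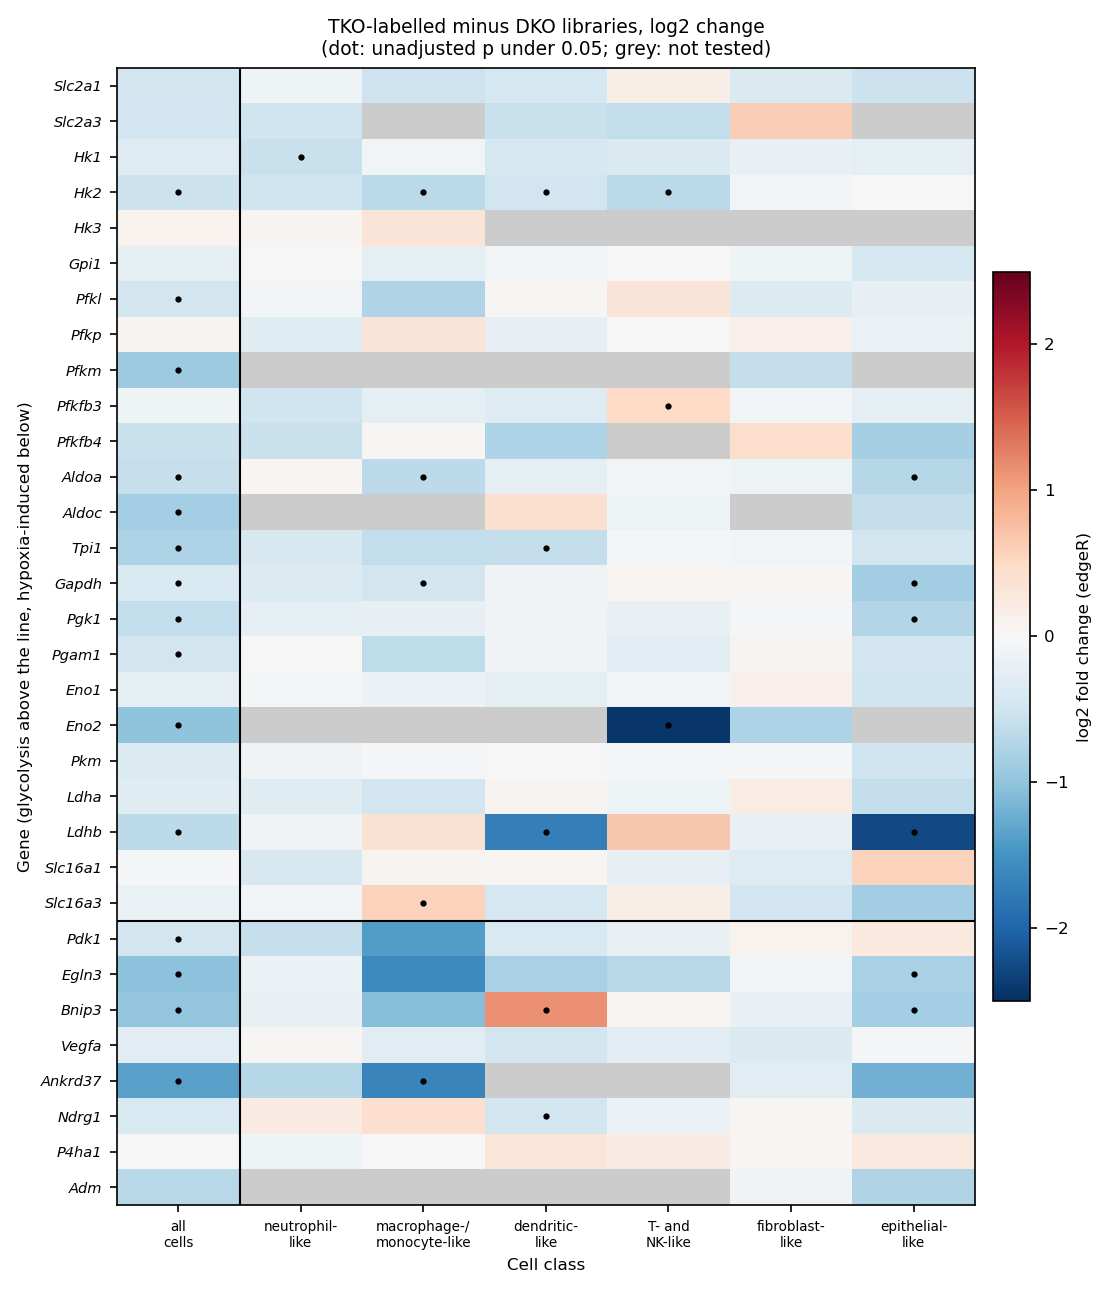
Log2 difference of the TKO-labelled from the DKO libraries for each of the 32 genes in all cells and in each class, with a dot where the unadjusted p is under 0.05 and grey where a gene was not tested. Most of the all-cells and epithelial-like columns are below 0 (30 of 32 and 24 of 28 genes), and no gene passed the adjusted threshold.

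The difference between genotypes was compared between the 2 largest classes. Of 29 members tested, 0 differed between neutrophil-like and T- and NK-like cells (0.0879% of all genes). Pfkfb3 had the smallest p (interaction -1.02 ± 0.35, unadjusted p = 0.0085, adjusted p = 0.81): it was lower in neutrophil-like and higher in T- and NK-like cells of the TKO-labelled libraries, without overlap in either class. Both classes mixed their clusters differently by library, so this is a difference of class sums. Isoform shares were compared between genotypes by an exact two-sided permutation test over libraries, for 18 genes in 6 classes (108 comparisons). With 2 libraries against 2 no p can be below 0.33, so none could pass. The largest mean differences were 14.6 percentage points more Slc16a1 of the Slc16a pair in epithelial-like cells (3.85% and 16.7% against 25.6% and 24.2%) and 14.6 points more Pfkp of the phosphofructokinases in macrophage- and monocyte-like cells (55.7% and 70.7% against 73.7% and 81.8%). The first rests on 363 UMIs over the 4 libraries, and DKO replicate 1 stood apart from the other 3. Of the 8 pathway lists and the dissociation-induced genes, 0 genes were called between genotypes in any class or in all cells; 10 of 29 further hypoxia targets tested in all cells were lower at an unadjusted p under 0.05, as were 7.76% of all genes, with Nos2 (-2.07 ± 0.27, adjusted p = 0.20) and Ddit4 (-0.71 ± 0.14, adjusted p = 0.24) first.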

How the data were processed

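Cells were profiled by 10x 3′ single-cell RNA sequencing, hashtag-labelled and combined into 1 load after enzymatic dissociation, red cell lysis and Annexin V removal of dead cells, per the labels' protocols. Reads were processed with Cell Ranger 7.0.0 and STAR on mm10, per the submitters' processing notes. Per the file headers, the authors deposited raw UMI counts per gene and cell, for 32285 genes and 6 hashtag features. The values are whole numbers. In every barcode the library's own hashtag was the highest.

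Barcodes with fewer than 200 genes or over 20% mitochondrial UMIs were dropped, leaving 3381 of 3508. Doublets were not called and were kept. Cells were clustered (scanpy 1.11.5, leidenalg 0.10.2, Python 3.11.15; 2000 variable genes, 30 components, 20 neighbours, Leiden resolution 1.0) without 129 genes, the members and the pathway lists among them, and 23 clusters resulted. A cluster was named where at least 3 markers of a class were raised by 1.0 on the log2 scale and its score passed 0.5. It stayed unnamed if another class had more markers than its own among its leading genes. The same held for a shallow cluster with no marker of its own class among them, such as cluster 17. Clusters that stayed unnamed and classes under 20 cells in any library were left out of the tests by class. They were part of the sum over all cells.

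Counts were summed per library and class and tested with edgeR 4.0.16 in R 4.3.3 (TMM, filterByExpr, robust quasi-likelihood test, Benjamini-Hochberg adjustment over all genes at 0.05). Contrasts between classes had a library term, contrasts between genotypes none. SEs are those implied by the difference and its F. Alternatives were DESeq2 1.42.0, DESeq2 size factors, no low-count filter, each library left out, other cell filters and clusterings, and a replicate block. The fit was run on simulated counts with known changes and a fixed spread between libraries. Such a run does not measure its power or error rate at the spread of these libraries. Shares carry exact (Clopper-Pearson) 95% binomial intervals, which cover counting error only.

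A second row named Aldoa held 2 UMIs and was not used. Eno1b, a near copy of Eno1, held 315 UMIs, so that Eno1 reads may be split between them. Values per library are given for members with isoforms, for hypoxia-induced members where they are highest, and for the 3 members with the smallest p where a genotype comparison called none. Up to 3 genes of a pathway list were named by smallest p. The members and lists were chosen with earlier results of these data known, and so were the comparisons among neutrophil-like clusters.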

Additional observations from a re-analysis of the deposited data

Results flagged for a closer look

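Some members differed between genotypes in opposite directions in different cell groups, without overlap between the DKO and the TKO-labelled libraries in each. The difference between the groups named here was not tested, and none of the values passed the adjusted threshold. Aldoa was higher in the TKO-labelled libraries by 0.60 (log2) in neutrophil-like cluster 0, and differed by -0.71 in epithelial-like and -0.64 in macrophage- and monocyte-like cells. Bnip3 differed by 1.14 in dendritic-like and -0.85 in epithelial-like cells. Pfkfb3 differed by 0.50 in T- and NK-like cells and -1.17 in cluster 0. For the whole neutrophil-like class, which holds cluster 0, the difference from T- and NK-like cells was tested and did not pass (interaction -1.02 ± 0.35, edgeR adjusted p = 0.81). Slc2a3 differed by 2.42 in cluster 1 and 1.04 in cluster 2, and by -0.93 in cluster 0.

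Clusters that stayed unnamed were in no comparison by class and entered only the sum over all cells. They held the highest pooled level of many members among the 21 clusters with at least 20 cells. Cluster 14 was highest for 13 members, cluster 20 for 3 and cluster 17 for 2. They were picked after their values were seen, and their levels are given without a test.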

How the results depend on the processing

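Among members taken singly, 2606 results under the other settings of the fit kept their direction and their side of the threshold, 106 lost and 8 gained a call, and 8 values without a test moved by more than the spread between libraries. Under alternatives chosen after seeing the data, 390 kept both, 49 lost and 6 gained a call, and 1 reversed. Counts of called members stayed within 1.5 times the value reported in 161 cases and did not in 5. The share of all genes called is given for the main fit only, so counts under other settings or without a library stand without a background. In all cells, 3 members were called lower with no low-count filter and 3 with DESeq2, against 0. In epithelial-like cells 1 was called with no low-count filter, and leaving out a library gave 0 to 1. The macrophage- and monocyte-like class count was 9 to 16 when a library was left out, against 17, with 9 without DKO replicate 1. Among alternatives chosen after seeing the data, leaving out a library gave 0 to 2 genotype calls in cluster 0, 0 to 2 in cluster 1, and 3 to 11 members for cluster 2 against the other clusters. Gapdh between genotypes in cluster 3 ranged from -0.87 to 0.10 when a library was left out, and reversed to 0.10 without DKO replicate 1. A library left alone in its group is assumed to vary like the others. Same-numbered libraries do not share a stated source. Deviations of same-numbered libraries correlated at -0.04 to 0.37 by class, and with a replicate block 0 members were called between genotypes in all cells and in each of the 6 classes. At these depths, members with a few UMIs per class (Pfkm, Eno2, Ldhb, Adm) were not firmly measured.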

Other observations

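Cluster 14 (77 cells, with 32, 8, 20 and 17 in DKO replicates 1 and 2 and TKO replicates 1 and 2) was led by Gpnmb, a lysosomal glycoprotein, Atp6v0d2, a proton pump subunit, and Cd36, a lipid scavenger receptor. Its cells held Slc2a1 at 557, 440.8, 494 and 423 CPM in that order, Hk3 at 296, 421, 518 and 423 CPM and P4ha1 at 218, 300.5, 414 and 307 CPM, each above every library of the 6 named classes that were compared. Egln3 stood at 199, 240.4, 223 and 326 CPM and Tpi1 at 509, 1062, 1036 and 557 CPM. Slc2a3 was at 4.84, 20.04, 47.8 and 115 CPM and Slc16a3 at 159.9, 140.2, 287 and 96.0 CPM, both below every library of the whole neutrophil-like class. The Slc2a3 range overlapped those of neutrophil-like clusters 1 (9.86 to 126 CPM) and 2 (44.4 to 129 CPM). Slc16a3 was below every library of clusters 1 and 2 (at least 315 and 451 CPM). The 10 neutrophil markers summed to 7634 to 12019 CPM in cluster 14 and the 11 macrophage and monocyte markers to 182 to 329 CPM. With the stricter cell filter a cluster of 266 cells led by Il23a, Atp6v0d2 and Gpnmb also stayed unnamed.

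Cluster 20 (30 cells, 3, 4, 13 and 10 by library) was led by the type 2 cytokine genes Il5 and Il13 with Csf2 and Calca. Adm gave 1, 0, 19 and 23 UMIs in it, or 99.6 CPM pooled, and Ldha stood at 858, 797, 788 and 504 CPM. The few Pfkm UMIs there (0, 2, 0 and 3), and those of Pfkfb3 and Eno2 in the shallow cluster 17 (35 cells, median 646 UMIs), are too sparse to compare.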
